A study of Canis lupus familiaris with 5 samples.

Results

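Single-nucleus RNA counts of 6 regulators of G protein signalling (RGS1, RGS2, RGS3, RGS4, RGS5 and RGS16) were described in canine vein before and after its use as a bypass graft. They are 6 of the 35555 features in the count tables, and 6 of the 21 features with a numbered RGS symbol. The genes were matched by symbol and were chosen by their levels in these same libraries, that is, by their UMI counts and shares of positive nuclei in each library and cell type. A UMI (unique molecular identifier) marks 1 captured RNA molecule. Levels of the 6 genes are therefore a description, with no test, and the tests were run on other genes of the G protein pathway.

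RGS proteins bind the active, GTP-loaded alpha subunit of a heterotrimeric G protein and speed up its GTP hydrolysis, which shortens the signal from the receptor upstream. The 6 genes belong to the R4 subfamily, whose members are mostly short proteins made of little beyond the RGS domain. RGS2 acts mainly on Gq, the G protein of vasoconstrictor receptors in vessels. RGS3, RGS4 and RGS16 act on Gi and Gq. RGS1 is known from lymphocytes and macrophages, where it dampens chemokine receptor signals. RGS5 is widely used as a marker of pericytes and vascular smooth muscle.

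Nuclei came from snap-frozen cephalic vein of male mongrel dogs of about 25 kg, with no age or genotype given. Control vein was an undistended segment (n = 2 libraries, from dogs 1 and 2). Distended vein was taken after harvest, during which saline with papaverine, a vasodilator, and bivalirudin, an anticoagulant, was injected while the outflow was closed; harvest and distension took about 30 min (n = 2, dogs 1 and 2). Grafted vein had been harvested and distended in the same way and was sampled after 24 h as a carotid bypass (n = 1, dog 1). The grafted group is 1 library of 1 dog, so it has no spread of its own, and each contrast with it sets that library against the spread of the others.

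After barcodes with under 100 genes were left out, 765, 1036, 2108, 241 and 2705 nuclei remained in the control libraries of dogs 1 and 2, the distended libraries of dogs 1 and 2 and the graft; values of all 5 libraries keep this order. Their median depth was 424, 274, 545.5, 498 and 2350 UMIs, so the grafted nuclei were read more deeply than all others. These depths leave out 24 unnamed features and 4 locus features that held between 2.98% (grafted) and 70.4% (control dog 1) of a library's UMIs. Levels are given as CPM, a gene's UMIs in kept nuclei scaled to a total of 1000000 remaining UMIs, and intervals of shares are 95% exact Clopper-Pearson intervals that cover counting error only. A share of 0 is given with the limit of 3 counts of its total, which bounds nuclei with a UMI and not nuclei that express the gene. At most 4 barcodes of a library also occurred in another. Distended dog 2 stood apart, with 41.1% of its nuclei in cluster 3, a cluster it shared with grafted nuclei, and with ACKR1, a chemokine-binding receptor of venular endothelium, at 1485 CPM against 65.4 in distended dog 1 and 1902 in the graft.

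Clustering without RGS genes gave 18 clusters, assigned to 6 cell groups by marker lists. The endothelial group (clusters 0, 1, 3, 4, 5, 9, 11 and 14) held clusters 0, 3, 5, 11 and 14 that stayed unnamed, because their leading genes held more markers of another list than of their own, so endothelial clusters are compared by number. Of the 20 endothelial markers, 17 were detected in cluster 14 and 15 in cluster 9. PECAM1, a junction molecule of that list, was at 606 CPM in cluster 14 and 969 CPM in cluster 9. It was at 309 CPM in neutrophil-like cluster 13 and 39.8 CPM in fibroblast-like cluster 15. ERG, another marker of the list, was at 562 CPM in cluster 14. In cluster 9 ERG was at 109 CPM, below cluster 13 (183 CPM). VWF, also of the list, was at 608 CPM in cluster 14 and 281 CPM in cluster 9. It was at 152 CPM in cluster 13 and 384 CPM in fibroblast-like cluster 2. CDH5 was at 144 and 59.5 CPM in clusters 14 and 9, against 50.3 CPM in cluster 13. EMCN was at 1894 and 881 CPM in clusters 14 and 9, against 418 CPM in cluster 13. The grafted library supplied 929 of the 949 nuclei of cluster 14, 262 of the 273 nuclei of cluster 9 and 447 of the 467 nuclei of neutrophil-like cluster 13. Cluster 9 was led by ribosomal protein genes and ACKR1. The limits for naming clusters were set after the data had been seen, and doublets were not removed.

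RGS4 was found almost wholly in the graft. Its UMI counts were 0 in control dogs 1 and 2, 1 in distended dog 1, 0 in distended dog 2 and 1708 in grafted dog 1, where 311 of 2705 nuclei were positive (11.5%, interval 10.3 to 12.8). The grafted library thus held 99.9% of all RGS4 UMIs, and its level did not overlap those of the other libraries. Zero positive nuclei allow shares of up to 0.392%, 0.290% and 1.24% in control dogs 1 and 2 and distended dog 2. Grafted vein stood at 157 CPM, at least 43.8-fold above control vein when the 2 control libraries together are placed at a floor of 3 counts. Without control dog 1 this limit was 17.7-fold. Against distended vein, the ratio of pooled counts was 279, with a counting interval from 49.9 to 11007. It rests on the single UMI of distended dog 1, without which the limit was at least 14.6-fold.

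The higher share in the graft remained at equal depth. When each nucleus was thinned to 200 UMIs, RGS4 was found in 1.59% of 2704 grafted nuclei and in 0 of 657, 749, 2047 and 239 nuclei of the other libraries in the order above. At this depth the RGS2 shares were 0%, 1.60%, 1.22%, 2.09% and 5.07%, and the RGS16 shares were 0.152%, 0.267%, 0.0977%, 0% and 0.851%. The grafted library was again the highest for both. For RGS3 the thinned shares were 8.52%, 6.81%, 2.20%, 7.53% and 4.18%, and the grafted library lay within the range of the others, although its unthinned share of 33.4% was the highest of the 5.

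**Figure D1:**
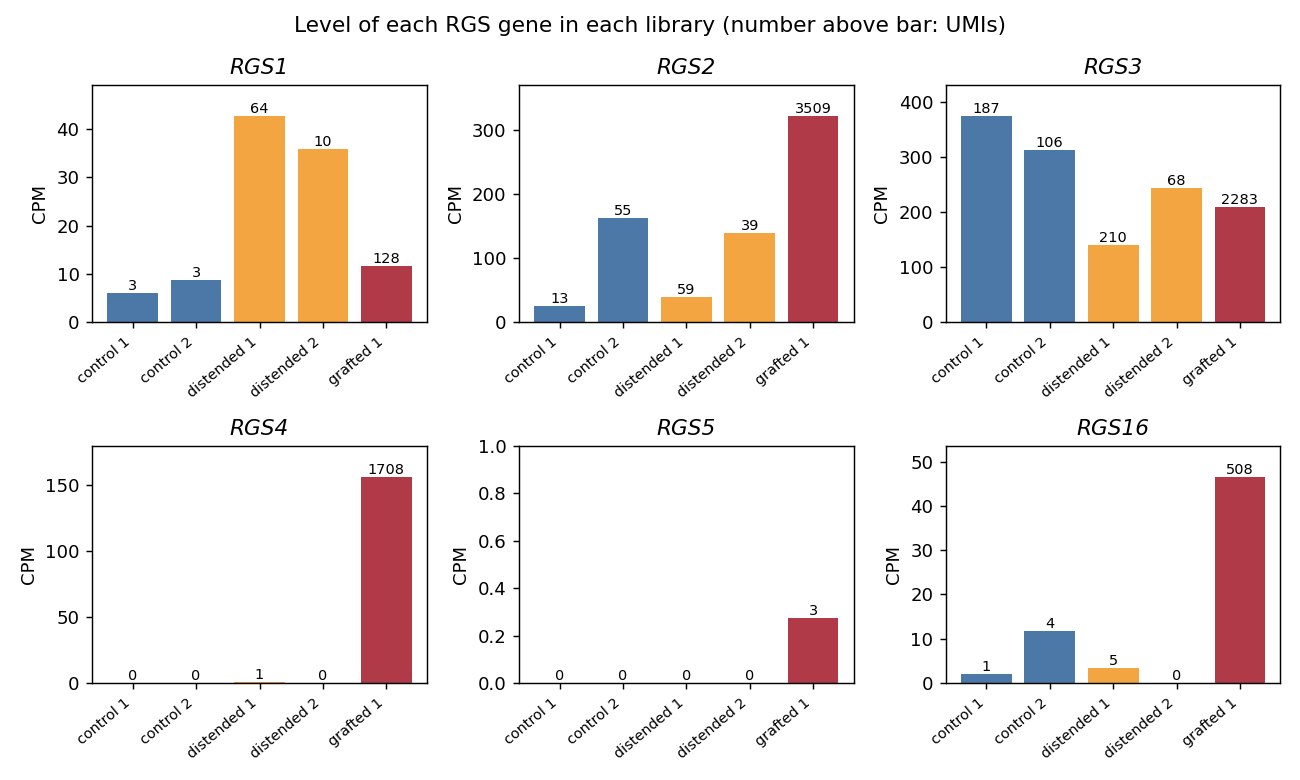
Level of each of the 6 genes (CPM) in the 5 libraries, with 1 bar for each library, its UMI count above the bar, and colours for control, distended and grafted vein; each panel has its own scale. The grafted library is highest for RGS2 (322 CPM), RGS4 (157 CPM) and RGS16 (46.6 CPM), while RGS1 is highest in both distended libraries and RGS3 in both control libraries.

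Within the graft, RGS4 lay mostly in endothelial clusters 14 and 9. Cluster 14 held 954 UMIs in 206 grafted nuclei and cluster 9 held 682 UMIs in 74 grafted nuclei, which were 55.9% and 39.9% of the gene's UMIs in that library. The positive share was 21.7% of 949 nuclei in cluster 14 (interval 19.1 to 24.5; median depth 3936 UMIs) and 27.1% of 273 nuclei in cluster 9 (interval 21.9 to 32.8; median depth 5198 UMIs). In fibroblast-like cluster 15, also from the graft, 4 of 795 nuclei were positive (0.503%, interval 0.137 to 1.28, median depth 1787 UMIs). In neutrophil-like cluster 13, also mostly from the graft, 19 of 467 nuclei were positive (4.07%, interval 2.47 to 6.28, median depth 1311 UMIs). Thinned to 1000 UMIs, the shares were 12.96%, 10.8%, 2.85% and 0.303% in clusters 9, 14, 13 and 15. The endothelial clusters thus stood above the neutrophil-like and fibroblast-like clusters at equal depth.

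**Figure D2:**
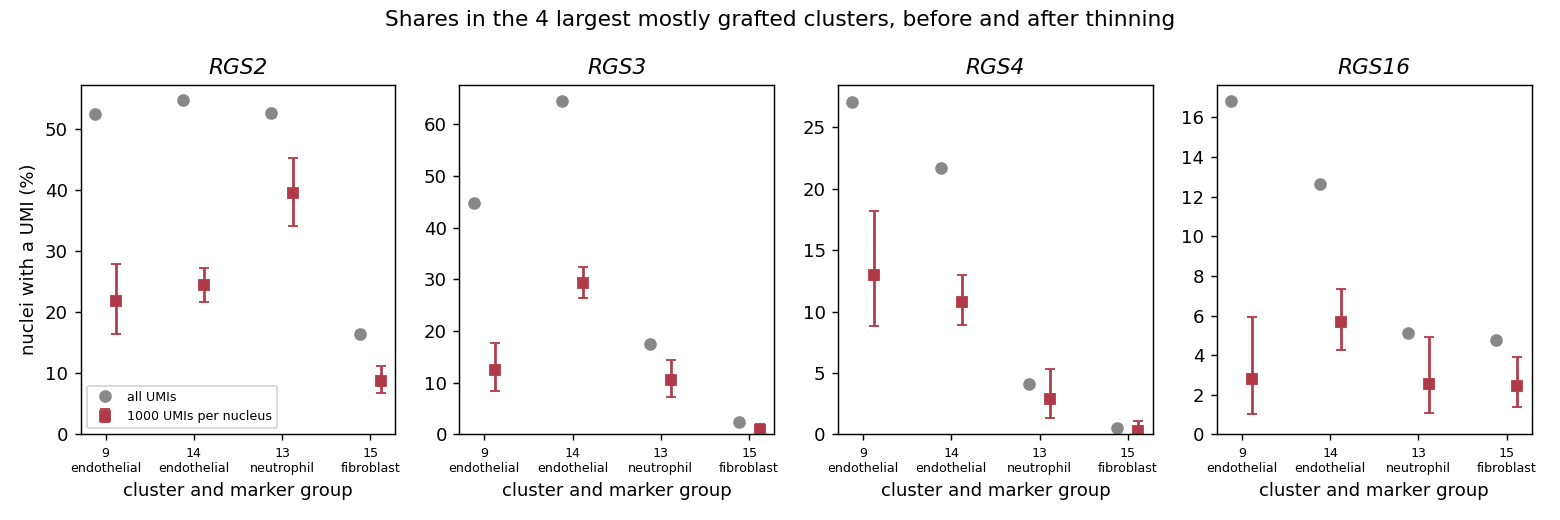
Share of nuclei with at least 1 UMI (%) of RGS2, RGS3, RGS4 and RGS16 in clusters 9, 14, 13 and 15, which are mostly from the graft, with all libraries pooled; grey points use all UMIs and red squares 1000 UMIs per nucleus, with exact 95% intervals as bars. RGS4 stays highest in clusters 9 and 14 after thinning (12.96% and 10.8%, against 2.85% in cluster 13 and 0.303% in fibroblast-like cluster 15). RGS2 is then highest in neutrophil-like cluster 13.

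The other 6 endothelial clusters bore little RGS4. None of their 1983 control and distended nuclei had a UMI, and 6 of their 192 grafted nuclei did. The 31 control and distended nuclei that fell into clusters 9 and 14, with a median depth of 3630 UMIs, had no RGS4 or RGS16 UMI either, and a count of 0 there allows a share of up to 9.68%. RGS2 was found in 6 of those 31 nuclei and RGS3 in 12. Because 26 of the 31 came from distended dog 2, they describe that library more than a group.

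The RGS4 counts were uneven between nuclei. The highest nucleus held 115 UMIs, and the 10 nuclei of most RGS4 UMIs in cluster 9 supplied a large part of that cluster's count: without them its grafted level went from 205 to 85.6 CPM. The same step in cluster 14 took the level from 223 to 187 CPM. In cluster 9, grafted nuclei with an RGS4 UMI had a median depth of 19989 UMIs, against 2026.5 in nuclei without one. In cluster 14 those depths were 4755 and 3728 UMIs. The part of depth in the distribution within cluster 9 was not tested. Cluster 10, macrophage-like, held 24 RGS4 UMIs in 2 grafted nuclei, and cluster 13 held 36 UMIs in 19.

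RGS16, whose UMI counts were 1, 4, 5, 0 and 508 in the 5 libraries in the same order, shared this distribution in part. The grafted library, at 46.6 CPM, did not overlap the others, which ranged from 0 to 11.8 CPM, and 234 of its 2705 nuclei were positive (8.65%, interval 7.62 to 9.77). The ratio to control vein was 6.76 from mean CPM and 7.82 from pooled counts (counting interval 3.33 to 24.2). From mean CPM it was 23.3 without control dog 2, which held 4 of the 5 control UMIs, and 3.95 without control dog 1. The ratio to distended vein was 27.9 from mean CPM and 16.6 from pooled counts (interval 7.05 to 51.2). All 5 distended UMIs were in dog 1. With that library left out the ratio was at least 4.34, and with distended dog 2 left out it was 13.96. Control and distended vein overlapped.

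Of the RGS16 UMIs in grafted nuclei, 278 lay in cluster 14, 143 in cluster 9, 46 in fibroblast-like cluster 15 and 35 in neutrophil-like cluster 13. Thinned to 1000 UMIs, the share of positive nuclei was 5.67% in cluster 14, 2.78% in cluster 9, 2.53% in cluster 13 and 2.42% in cluster 15. RGS16 was therefore found outside endothelium at rates closer to the endothelial ones than RGS4 was. RGS16 counts were uneven between nuclei too: without the 10 nuclei of most RGS16 UMIs, the grafted level of cluster 9 went from 43.0 to 21.1 CPM. In fibroblast-like nuclei RGS16 stood at 27.4 CPM in control dog 2, from 3 UMIs, and at 27.0 CPM in the graft, from 46 UMIs.

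RGS4 and RGS16 UMIs met in the same grafted nuclei of cluster 14. After thinning to 1000 UMIs, RGS16 was present in 12 of 101 RGS4-positive nuclei (11.9%) and in 5.04% of 814 RGS4-negative nuclei. RGS3 was present in 39.6% and 28.0% of the same nuclei, and RGS2 in 29.7% and 24.3%. All 3 other genes were thus more frequent in the RGS4-positive nuclei of cluster 14. Cluster 9 had 28 RGS4-positive and 178 RGS4-negative nuclei. The shares were 10.7% (only 3 nuclei) and 1.69% for RGS16, 17.9% and 12.4% for RGS3, and 21.4% and 21.9% for RGS2. RGS2 was thus no more frequent there. Cluster 13 had only 9 RGS4-positive nuclei, with RGS16 in 0 of them and in 2.63% of 304 RGS4-negative nuclei. The shares in cluster 13 were 33.3% and 9.54% for RGS3 and 66.7% and 38.2% for RGS2. These are nuclei of 1 library and the shares carry no test.

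**Figure D3:**
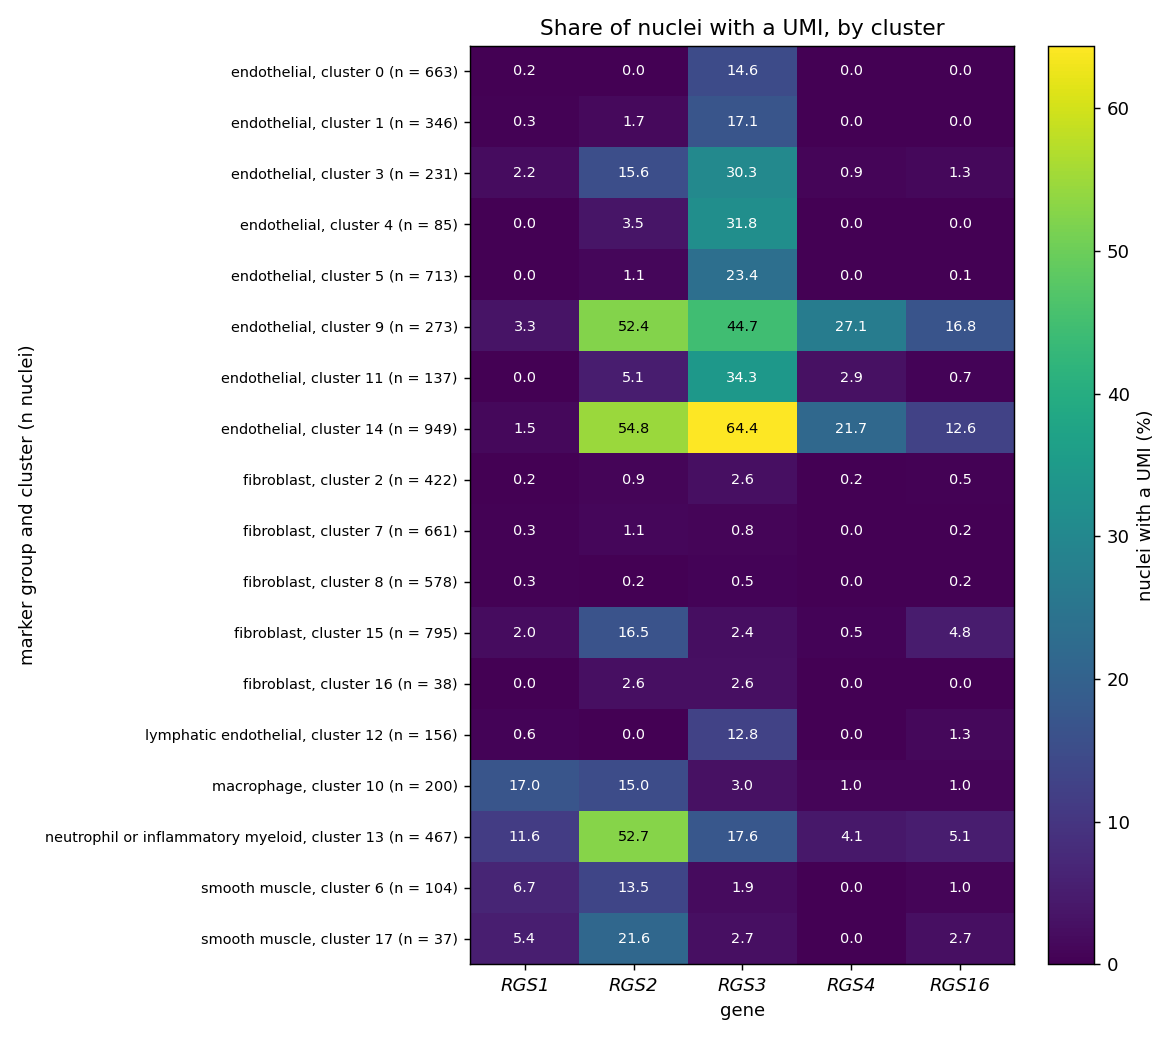
Share of nuclei with at least 1 UMI (%) for RGS1, RGS2, RGS3, RGS4 and RGS16 in each of the 18 clusters, all libraries pooled and nuclei not thinned, with colours from dark (0%) to yellow (highest) and the value in each cell. RGS4 is highest in clusters 9 (27.1%) and 14 (21.7%), RGS3 in cluster 14 (64.4%), RGS2 in clusters 9, 13 and 14, and RGS1 in cluster 10 (17.0%). Depth differs between clusters: thinned to 200 UMIs, RGS3 was in 8.11% of cluster 14 and 9.72% of cluster 0.

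RGS2 was also highest in the graft, but was found in every library and in most cell groups. Its UMI counts were 13, 55, 59, 39 and 3509, or 26.0, 162, 39.4, 140 and 322 CPM. The graft lay above all other libraries, 3.42-fold above the control mean and 3.60-fold above the distended mean. The ratio to control vein was 1.99 without control dog 1 and 12.4 without control dog 2. Against distended vein, leaving out dog 1 of that group gave 2.31 and leaving out dog 2 gave 8.17. The control and distended libraries overlapped, with a ratio of 0.951 whose direction changed under 4 of 9 alternatives (log2 ratio 1.78 without control dog 2).

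The control spread of RGS2 came from few nuclei. In control dog 2, 42 of the 55 UMIs (76.4%) lay in 16 nuclei of neutrophil-like cluster 13, of which 13 were positive. The summed level of the neutrophil and inflammatory myeloid markers was 148, 3117, 971, 2057 and 3450 CPM in the 5 libraries, so control dog 2, distended dog 2 and the graft were high in both, and the part of these cells in the RGS2 levels was not tested. With cluster 13 left out, RGS2 stood at 26.0, 39.5, 39.4, 126 and 290 CPM, and the graft remained the highest. With clusters 9 and 14 left out in its place, the graft stood at 279 CPM. The next highest library was then control dog 2, at 162 CPM. The graft was thus the highest library with either set of nuclei left out alone. Each step kept the other set in, and the level without both sets was not computed.

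By cell group, RGS2 in the graft was at 586 CPM in cluster 13, 364 in cluster 9, 322 in cluster 14, 206 in cluster 3 and 98.4 in fibroblast-like nuclei. Cluster 13 was higher in control dog 2, at 4187 CPM from 42 UMIs in 16 nuclei, and in distended dog 2, at 1914 CPM from 4 UMIs in 2 nuclei. Thinned to 200 UMIs, 37.5% of the 16 control nuclei and 10.7% of the 447 grafted nuclei of that cluster were positive. In macrophage-like cluster 10 RGS2 was at 427 CPM in control dog 2, 513 in distended dog 1 and 232 in the graft. The graft was therefore not the highest library in these leukocyte-like clusters. In fibroblast-like nuclei of the other libraries it was at 0, 18.3, 11.8 and 72.8 CPM, from 0, 2, 9 and 2 UMIs, all below the graft. Most of those nuclei lay in clusters 2, 7, 8 and 16, whereas 785 of the 791 grafted fibroblast-like nuclei lay in cluster 15. Cluster 3, the one endothelial cluster with many nuclei of both distended dog 2 (99) and the graft (126), gave 92.2 and 206 CPM. No UMI was found in the 663 nuclei of endothelial cluster 0 (median depth 313 UMIs), or in the 156 lymphatic endothelial-like nuclei, which allow shares of up to 0.452% and 1.92%. Whole-vein sums cannot tell fewer cells of a type from less RNA per cell, for RGS2 or for the other genes.

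In smooth muscle, where RGS2 restrains contraction through Gq, the UMIs were too few to rank the libraries. Cluster 6, led by MYH11 and ACTA2, gave 233, 158 and 472 CPM in control dogs 1 and 2 and distended dog 1, from 6, 1 and 14 UMIs. The grafted smooth muscle-like nuclei were all in cluster 17 and gave 159 CPM from 11 UMIs in 37 nuclei. The graft thus lay inside the range of the controls in this cell group, but the lower end of that range rests on 1 UMI.

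RGS3 lay mostly in clusters of the endothelial marker group and was present in every library. Its UMI counts were 187, 106, 210, 68 and 2283, or 374, 312, 140, 243 and 209 CPM. Both controls lay above all other libraries, with ratios of 0.559 for distended and 0.610 for grafted against control vein. Both ratios turned around when the 4 dominant locus features were kept in the total, to log2 ratios of 0.26 and 0.90, so that the direction depends on the denominator. With these features kept, the ratios of grafted to control vein were also larger for RGS1 (4.73), RGS2 (9.78), RGS4 (at least 137) and RGS16 (19.3). Grafted and distended vein overlapped (ratio 1.09). The summed level of the 20 endothelial markers was 15317, 9685, 7605, 7154 and 5817 CPM, also highest in the controls, and its part in the RGS3 difference was not tested.

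Endothelial cluster 5 gave 452, 444 and 343 CPM in control dogs 1 and 2 and distended dog 1. Cluster 0 gave 498, 538 and 256 CPM in the same libraries. Cluster 3 gave 477 CPM in distended dog 2 and 438 CPM in the graft. In the graft, cluster 14 stood at 361 CPM, with 601 of 929 nuclei positive (64.7%, interval 61.5 to 67.8), while cluster 9 stood at 115 CPM. Distended dog 1 was below both controls in clusters 0 and 5, and cluster 9, with all libraries pooled, was below every other endothelial cluster.

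The 8 endothelial clusters, of which 5 are unnamed, held 90.8% of the RGS3 UMIs. Lymphatic endothelial-like nuclei stood at 257 CPM from 24 UMIs, neutrophil-like nuclei at 151 CPM from 177 UMIs, and fibroblast-like nuclei at 18.3 CPM from 48 UMIs. Smooth muscle-like nuclei held 3 UMIs in 141 nuclei. By cluster, the unthinned positive share ran from 14.6% in endothelial cluster 0 (median depth 313 UMIs) to 64.4% in endothelial cluster 14 (3936 UMIs). Thinned to 200 UMIs, those shares were 9.72% and 8.11%, so this order depended on depth. By level, cluster 11 was the highest endothelial cluster at 603 CPM, with cluster 0 at 471 CPM and cluster 14 at 360 CPM. In fibroblast-like clusters the unthinned share ran from 0.519% in cluster 8 (565.5 UMIs) to 2.63% in cluster 16 (401 UMIs), below every endothelial cluster. Thinned to 200 UMIs, endothelial clusters 9 (1.47%) and 4 (2.35%) were below fibroblast-like cluster 2 (2.71%, 6 of 221 nuclei).

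**Figure D4:**
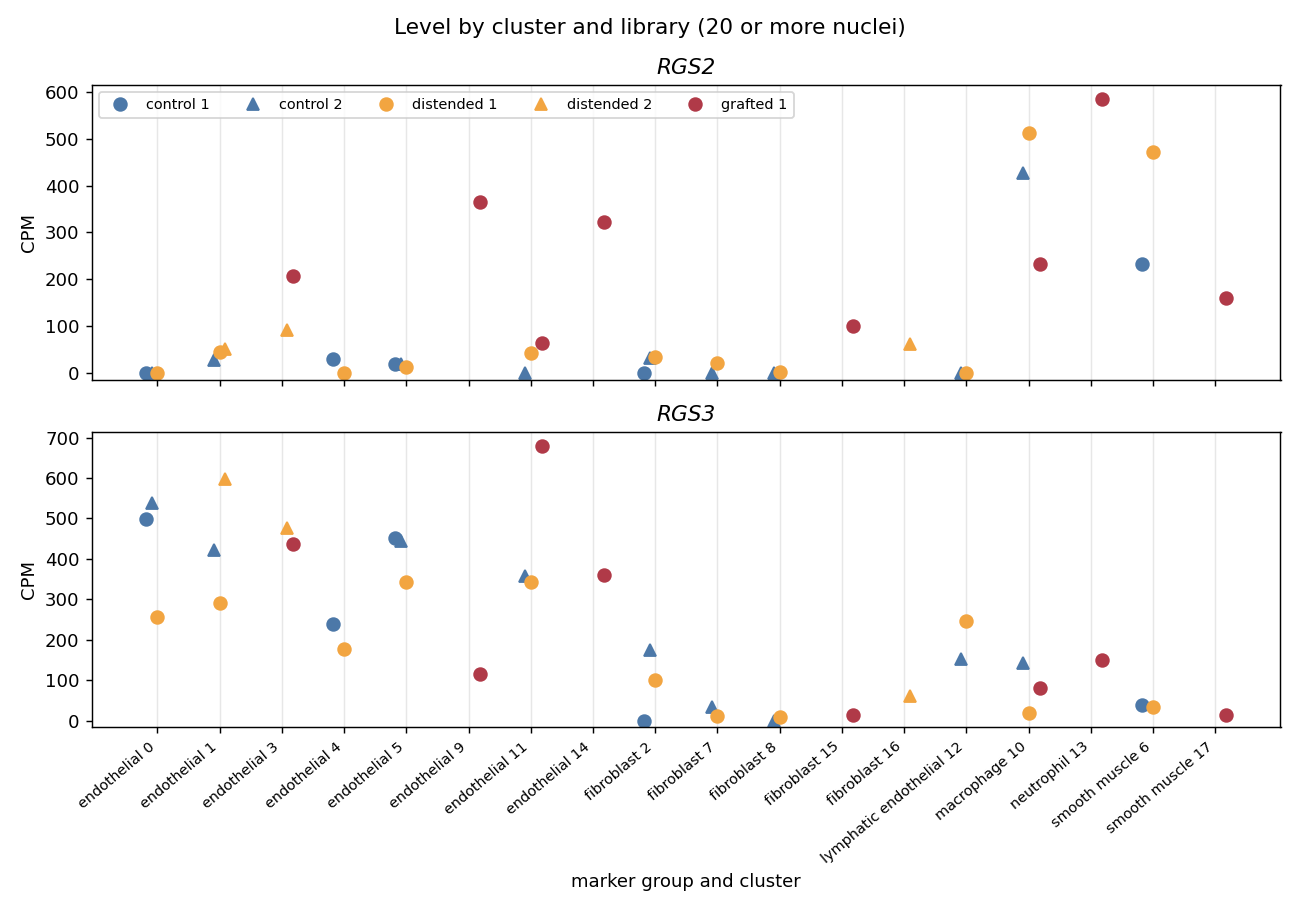
Level of RGS2 and RGS3 (CPM) in each cluster, with 1 point for each library that has at least 20 nuclei in that cluster, coloured by group and shaped by dog. RGS2 is higher in the grafted points of clusters 9, 13 and 14 than in any control or distended point of an endothelial cluster, whereas RGS3 lies between 115 and 680 CPM in the endothelial clusters of all groups.

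RGS1 gave another pattern, with its highest CPM in the distended libraries. Its UMI counts were 3, 3, 64, 10 and 128, or 6.004, 8.84, 42.7, 35.8 and 11.7 CPM. The 2 distended libraries lay above the controls and the graft, with a ratio of 5.29 to control vein. Grafted vein stood 1.58-fold above control vein from mean CPM, with a counting interval of the pooled ratio from 0.734 to 4.56. It stood at 0.299 of distended vein. At 200 UMIs per nucleus the shares of positive nuclei were 0.304%, 0.134%, 0.684%, 0.418% and 0.370%, from 14 or fewer positive nuclei in each library. At 500 UMIs they were 0%, 0%, 0.908%, 0.833% and 1.23%, and without thinning 0.261%, 0.193%, 1.71%, 1.66% and 3.88%. The graft was the highest in both of these, so the order of the shares depends on depth.

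The distended counts of RGS1 rested on small groups of leukocyte-like nuclei. In distended dog 1, 45 of 64 UMIs lay in 21 of 98 nuclei of macrophage-like cluster 10 (888 CPM). In the same cluster the controls held 3 UMIs each, in 10 and 44 nuclei (776 and 213 CPM), and the graft held 13 UMIs in 44 nuclei (178 CPM). Within these nuclei distended dog 1 lay close to control dog 1 and above control dog 2. With 3 UMIs in each control, the libraries cannot be ranked there. In distended dog 2, 8 of 10 UMIs lay in 2 nuclei of cluster 13, and the library's level was 7.21 CPM without that cluster, inside the control range. In the graft, 67 of 128 UMIs lay in cluster 13 (57.8 CPM). Summed macrophage markers were at 474, 522, 785, 254 and 350 CPM in the 5 libraries, and their part in the RGS1 levels was not tested.

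A finer clustering divided cluster 10. There, a macrophage-like cluster had RGS1 in 25 of 156 nuclei (806 CPM) and counted RGS1 among its leading genes, and a T or NK lymphocyte-like cluster had it in 8 of 38 (535 CPM). In smooth muscle-like cluster 6, RGS1 was found in 7 of 44 nuclei of distended dog 1 and in none of 41 and 18 control nuclei. Each of the 7 held 1 UMI, and so few control nuclei bound the control shares only loosely. With all libraries pooled, 1 of 97 nuclei of the cluster was positive at 200 UMIs and 5 of 59 at 500 UMIs. Endothelial cluster 5, a type in which RGS1 is not a known marker, had it in 0 of 713 nuclei. That count allows a share of up to 0.421%, at a median depth of 610 UMIs against 461.5 in cluster 10. The endothelial group as a whole had RGS1 in 30 of 3397 nuclei (0.883%), with 33 UMIs or 15.9% of the gene's total. The share was 3.30% in cluster 9, 2.16% in cluster 3, 1.48% in cluster 14 and at most 0.289% in each other endothelial cluster.

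RGS5 was almost absent. All 3 of its UMIs were in the graft, 2 in cluster 13 and 1 in fibroblast-like cluster 2, and it was the one member that did not pass the filter on low counts. None of the 141 smooth muscle-like nuclei, with 131226 UMIs in all, had an RGS5 UMI, which allows a share of up to 2.13%. Those nuclei held 781 UMIs of MYH11, the smooth muscle myosin heavy chain, and 320 of ACTA2. Of 11 pericyte markers, 5 were at 0 there (KCNJ8, NDUFA4L2, HIGD1B, COX4I2 and STEAP4), whereas PDGFRB had 16 UMIs, CSPG4 28 and NOTCH3 14. RGS5 was therefore not detected in these nuclei, and no fold is given for it. The parts of depth and of the annotation, which is not given, in this absence were not tested.

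The genes most like each member were taken over 19 sums of nuclei, each 1 named cell group in 1 library, by Pearson correlation of log2 levels. Unnamed clusters were left out of these sums. Among them was cluster 14, with 55.8% of all RGS4 UMIs and 53.7% of all RGS16 UMIs. The sums share libraries, depth and cell groups, and the coefficients are descriptions across 10586 genes. RGS1 was closest to CD37 (0.900), a leukocyte tetraspanin, STK17B (0.873) and KCNQ5 (0.868). RGS2 was closest to FAS (0.915), the death receptor, CEP41 (0.896) and GID8 (0.895). RGS3 was closest to LASP1 (0.870), PTPRB (0.847), an endothelial receptor phosphatase, and FLOT1 (0.846). RGS4, with UMIs in 5 of the 19 sums, was closest to MT1E (0.973), a metallothionein, DPY19L2 (0.953) and ASF1B (0.95). RGS16 was closest to JMJD6 (0.900), CCNJ (0.881) and BRIP1 (0.844). With the unnamed clusters added, 3 of 3 partners recurred for RGS1, 2 for RGS2, 1 each for RGS3 and RGS4, and 0 for RGS16. RGS5 had UMIs in 2 sums and is not given.

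The Gq and Gi alpha subunits on which these regulators act were present in every library. GNAQ, the Gq subunit, was at 1147, 212, 308, 297 and 410 CPM, and GNAI2, a Gi subunit, at 148, 56.0, 49.4, 85.9 and 86.5 CPM in the 5 libraries. For both, control dog 1 was the highest library and the graft lay within the range of the others. GNA11 ranged from 4.67 to 17.9 CPM, with the graft at 8.07. GNA13, an alpha subunit outside the Gi and Gq groups, was highest in the graft, at 115 CPM against 35.4 to 74.1 CPM elsewhere. RGS12, a regulator outside the R4 subfamily, ran the other way, with 27.4 CPM in the graft and 42.9 to 97.2 CPM in the other libraries.

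The wider pathway was tested with edgeR's quasi-likelihood test on counts summed over all nuclei of each library. Of 172 genes in 8 lists, 169 were in the files and 74 passed the filter on low counts; no other R4 member was among them. None of the 74 passed an adjusted p of 0.05 in distended against control, grafted against control or grafted against distended vein, and neither did any of the 10645 genes tested (0% in each of the 3 contrasts). At an unadjusted p under 0.05 the pathway had 0, 4 and 3 genes (ADCY5, AXIN2, ADCY1 and ACKR3, then ADCY5, AXIN2 and ADCY1), all of them lower in the graft, against 1.23%, 7.55% and 3.80% of all genes. The shares in the 2 contrasts of the graft, 4 and 3 of 74, were close to these backgrounds. DESeq2 called 1, 104 and 23 of all genes and 0, 1 and 0 of the pathway, the 1 being ADCY5.

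The pathway genes tended to lower fitted levels. The median log2 change over the 74 genes was -0.22, -0.53 and -0.26 in the 3 contrasts, against 0.07, 0.05 and -0.02 over all genes tested. In grafted against control vein, 29 of 74 pathway genes and 5451 of 10645 genes had a positive change. The lists of receptor kinases and arrestins (7 genes, median -1.19), effectors (18, median -0.87) and other RGS-domain regulators (16, median -0.78) lay lowest, and the G protein beta and gamma subunits (10, median 0.24) and chemoattractant receptors (5, median 0.63) lay highest. None of the genes in these lists passed the adjusted test.

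ADCY5, an adenylyl cyclase of smooth muscle, was the lowest gene of the pathway in grafted against control vein, with 118, 106, 74.8, 17.9 and 3.21 CPM in the 5 libraries. The graft was below all others, and distended dog 2 was the next lowest (log2 change -5.21, edgeR adjusted p = 0.609). AXIN2, an RGS-domain protein of the Wnt pathway, was at 28.0, 79.5, 87.5, 10.7 and 3.30 CPM (log2 change -4.11, edgeR adjusted p = 0.609), with the graft again lowest. ADRA1A, an alpha-1 adrenergic receptor, was at 20.0, 20.6, 29.4, 0 and 1.10 CPM. Summed smooth muscle markers were at 3012, 1635, 1376, 368 and 668 CPM, also lowest in distended dog 2 and the graft, and their part in these values was not tested. Leaving out distended dog 2 gave edgeR log2 changes of -5.19 for ADCY5 and -4.08 for AXIN2 in grafted against control vein. Leaving out distended dog 1 gave -5.23 and -4.09. Each of these fits has 1 distended and 1 grafted library, so only the 2 controls supply its spread.

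At the other end stood ACKR1 (log2 change 3.76, edgeR adjusted p = 0.609), RGS17, a regulator outside the R4 subfamily (2.63; 0, 3, 28, 0 and 291 UMIs), and GNAI1, another Gi subunit (1.97; 98.1, 53.0, 62.8, 218 and 318 CPM). ACKR1 and GNAI1 were high in distended dog 2 as well as in the graft. In distended against control vein the highest genes were ACKR1, LPAR1 and RASGRP3 and the lowest CXCR1, GPSM3 and RGS14, all at an edgeR adjusted p of 1. CXCR1, a neutrophil chemokine receptor, had 0, 11, 0, 0 and 70 UMIs, so its fitted change is no measure of size. In grafted against distended vein CXCR1, C5AR1 and ACKR4 were highest and AXIN2, ADCY5 and ADRA1A lowest, all at an adjusted p of 0.999.

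**Figure D5:**
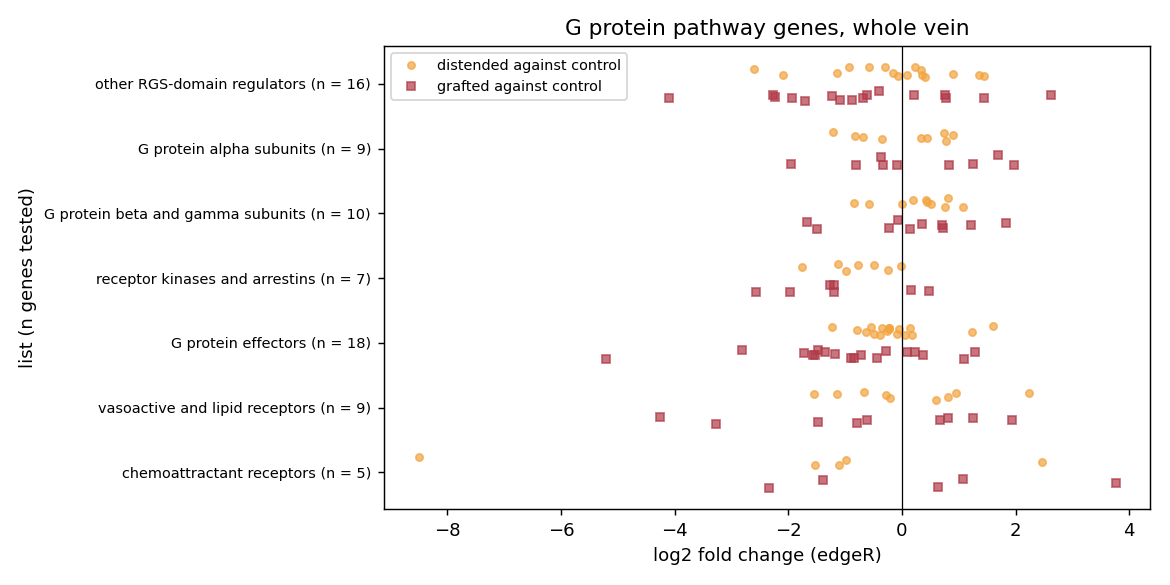
Fitted log2 fold change (edgeR, whole-vein sums) of each tested gene in the 7 pathway lists with tested genes, for distended (circles) and grafted (squares) against control vein, 1 point for each gene. Points of most lists spread on both sides of 0, those of receptor kinases and arrestins lie at or below 0 after distension, and no gene passed the adjusted test; both contrasts share the control libraries.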

How the data were processed

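Nuclear RNA of 5 libraries was measured by droplet sequencing. Whole-number UMI counts, not normalised, were deposited for each feature and barcode and came from Cell Ranger 7.0.0, per the submitters' processing notes. Build and annotation are not given in the sources used here. Barcodes with at least 100 detected genes were kept (6855 of 7391). The 24 unnamed features (0.588% to 11.5% of a library's UMIs) and 4 dominant features were left out of the totals behind levels and depths. The clustering left out the unnamed features but kept the 4 dominant features, which an alternative clustering left out. Clusters came from scanpy 1.11.5 (2000 variable genes without RGS genes, 20 components, 15 neighbours, Leiden resolution 0.8). A doublet caller marked 0.365% to 0.423% of nuclei under 3 settings, too few to count as having worked, so doublets remain.

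Whole-vein sums of raw counts were fitted with edgeR 4.0.16 (quasi-likelihood, all 3 groups in 1 fit, Benjamini-Hochberg adjustment over all 10645 genes past the filter); the lone grafted library is assumed to vary like the others. DESeq2 1.42.0 and R 4.3.3 served as an alternative. The scripts were tested on simulated data. Nothing beyond the dog number says how segments were replicated, so p-values measure the spread between these libraries.

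Libraries of 1 dog pair by the labels. The dog 1 minus dog 2 differences of control and distended vein correlated at -0.323 over genes. The block on dog made no pathway call.

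The members and the gene lists were chosen with earlier results of these data known. Named pathway genes are the 3 highest and 3 lowest fitted changes of each contrast; the subunits GNAQ, GNAI2, GNA11 and GNA13 and the regulators RGS10, RGS12 and RGS18 are given whatever their values; the genes most like a member are the 3 highest correlations of log2(CPM + 1). ADCY1, ACKR3, CHRM3, GNG5 and RGS6 were named after their values were seen.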

Additional observations from a re-analysis of the deposited data

How the results depend on the processing

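The number of G protein pathway genes called by edgeR was 0 in all 3 contrasts. With each replicate left out in turn it ranged from 0 to 1 (distended against control), 0 to 3 (grafted against control) and 0 to 4 (grafted against distended). The 1 was CHRM3, without distended dog 1. Leaving out distended dog 1 gave ADCY5, AXIN2 and CHRM3 as the 3, and leaving out distended dog 2 gave ACKR1, ADCY5 and AXIN2. The 4 were ADCY5, AXIN2, GNG5 and RGS6, again in the absence of distended dog 2. For grafted against control, DESeq2 gave 1 and no filter on low counts gave 2 (ACKR1 and ADCY5). The replicate block on dog gave 0, 0 and 0 pathway calls (unadjusted 1, 5 and 2), and changed no other call. The crossed replicate block, added after the data were seen, gave 0 pathway calls in each contrast and 2, 0 and 0 over all genes. Over all genes edgeR gave 0, 0 and 0, against 216, 517 and 2 when distended dog 1 was left out, 0, 380 and 355 when distended dog 2 was, and 11, 305 and 149 with no filter. With a distended library left out, that group and the graft have 1 library each, so only the 2 controls supply the spread. The cause was not tested.

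Of the 14 log2 ratios of member levels, 4 changed sign under some alternative. The RGS2 ratio of distended to control vein (-0.07) was 1.78 without control dog 2 (range over the replicates left out -1.26 to 1.78), 0.96 with the dominant features kept and 0.28 thinned to 200 UMIs, and the RGS3 ratios were 0.26 (distended) and 0.90 (grafted against control) with the dominant features kept. The RGS3 ratio of grafted to distended vein (0.13) was -0.22 without distended dog 1 and -0.26 thinned to 200 UMIs. With the dominant features kept, 5 other ratios moved, RGS1 in distended against control to 10.7-fold. Thinned to 200 UMIs, 5 of 13 moved: RGS4 to at least 8.49-fold (control) and 13.8-fold (distended), and RGS1 to 3.07-fold (distended against control). All 14 ratios kept their direction and size within the spread under TMM scaling and under a minimum of 200 genes. Depth limits the shares most: thinned to 200 UMIs, 16 of 30 library shares moved beyond their intervals.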

Other observations

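RGS18 and RGS10, regulators outside the 6 genes, had UMIs in leukocyte-like nuclei. RGS18, known from platelets and myeloid cells, stood at 2.00, 11.8, 5.34, 10.7 and 10.6 CPM in the 5 libraries in the order of the report. It had 85 UMIs in neutrophil-like cluster 13 (72.4 CPM) and 25 in macrophage-like cluster 10 (175 CPM). RGS10 had 36 and 5 UMIs in the same clusters. RGS12 lay elsewhere, with 139 UMIs in cluster 14, 79 in fibroblast-like cluster 15 and 49 in cluster 5, against 40 in cluster 13 and 2 in cluster 10. RGS4 and RGS5 are neighbours in RefSeq's gene table for UU_Cfam_GSD_1.0, and the 5 libraries held 1709 UMIs of the former and 3 of the latter, counts that are not scaled to gene length.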
